A study of Mus musculus with 6 samples.

Results

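H3K27ac, the acetylation of lysine 27 on histone H3, was examined at 10 genes that respond to the MAPK pathway in B16 F10 cells, a mouse melanoma line. They were the phosphatase genes Dusp4 and Dusp6, the Sprouty genes Spry1, Spry2 and Spry4, the Spred genes Spred1 and Spred2, and the ETS factor genes Etv1, Etv4 and Etv5, 10 of 21951 protein-coding genes in the annotation. The genes were chosen by name, and every peak that touched a gene or the 20 kb on either side of it was taken. After the peaks of the 4 libraries were merged, 126 of 182956 regions lay in these windows.

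The cells were B16 F10 cells, with no genetic change or treatment given in the labels, plated sparsely, at 100 cells per cm2, and taken on day 5 of the progressive pigmentation model. Low pigment (LP) and high pigment (HP) cells were sorted by side scatter, with 2 replicates of each. The 2 IgG libraries of unsorted cells were the authors' background for peak calling. All samples come from a single line, and nothing in the labels states that the replicates were separate cultures. The p-values of regions therefore rest on the spread between these samples only, pooled over all regions tested and not taken from each region. The H3K27ac libraries held 11467942 to 15353176 fragments. Of 8 melanocyte marker genes, 7 had a region at the promoter in each of the 4 libraries, against 0 of 6 fibroblast, 0 of 6 keratinocyte, 1 of 6 macrophage (Cd68) and 2 of 6 endothelial genes (Pecam1 and Egfl7).

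In the MAPK pathway, growth factor receptors pass a signal through RAS, RAF and MEK to the kinase ERK. ERK activity switches on the genes of its own brakes, the DUSP phosphatases and the Sprouty and SPRED proteins, together with the ETS factors of the Etv1, Etv4 and Etv5 group. In melanoma these genes are often read as a gauge of ERK output. H3K27ac marks active promoters and enhancers, and its level at a gene is not a measure of the transcript.

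The value compared is the scaled pileup, that is, how many fragments overlapped a peak at its summit, per 1000000 fragments of the library, and where several summits fell in a merged region the highest was used. A region within 3 kb of an annotated start of the gene was called its promoter region and one farther than 3 kb from every start was called distal, with distances given to the nearest start of the gene. Of the 126 regions, 23 were promoter regions of these genes, 7 were promoter regions of neighbours and 96 were distal. Most of them, 91 (72.2%), were called in 1 library only, against 81.7% over the whole series, and 13 (10.3%) were called in all 4, against 6.6%. These 13 comprised the promoters of all genes but Etv1 and 4 distal regions. Because the cells were measured in bulk, a higher share of cells with the mark and more mark in each cell cannot be told apart.

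HP had the higher pileup in each of the 13 regions by the limma estimate, as it had in 98.98% of all regions tested, but only a single region, a distal one of Dusp6, passed the test (adjusted p at most 0.05). Over the series 4.01% of the 12084 regions called in all 4 libraries passed as higher in HP. Both HP libraries lay above both LP libraries in 9 of the 13, against a background of 74.8%. The median log2 HP minus LP of the 9 promoter regions was 0.78, where all promoter regions had 0.90, and that of the 4 distal regions was 1.14, where all distal regions had 1.06. Centring each library on its own median removed a shift of 1.01 shared by most regions. The promoter median then became -0.23 and the distal median 0.13, where the median of all regions was -0.087. Of the 13 ratios 6 stayed above 0, and at least as many regions of the series lay below 0 as above it.

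**Figure D1:**
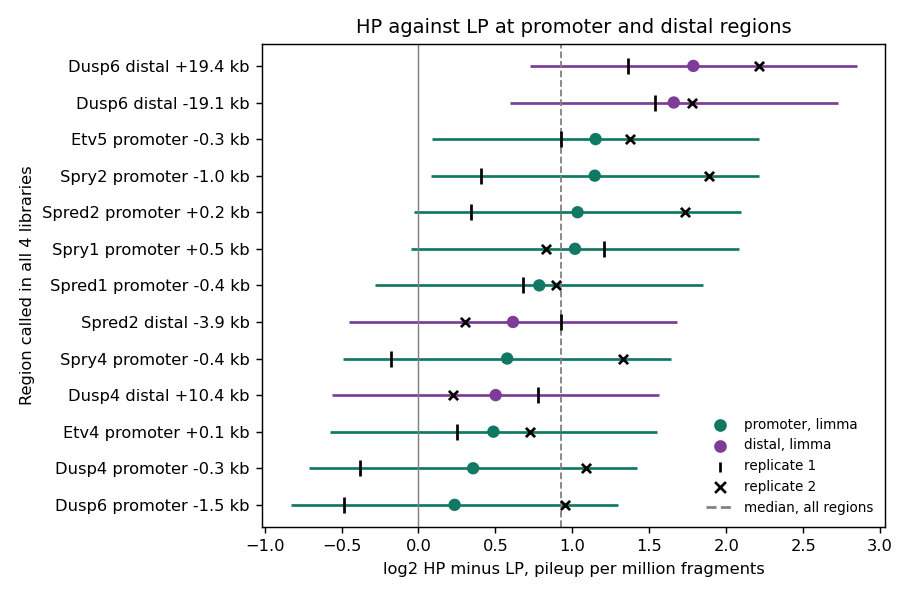
The log2 HP minus LP of the scaled pileup (x axis) for the 13 regions called in all 4 libraries, with the limma estimate and its 95% interval (point and line) and the ratio within replicate 1 (bar) and replicate 2 (cross). Both Dusp6 distal regions lie to the right of the dashed median of all regions, 0.92, while the Dusp6 and Dusp4 promoters are lowest, below 0 in replicate 1 and above it in replicate 2.

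Dusp6 encodes the phosphatase that removes phosphate from ERK in the cytoplasm. It lies at chr10:99263231-99267489 on the plus strand of mm10 (ENSMUSG00000019960.8). Its promoter region, chr10:99260361-99265198, had scaled pileups of 7.67 and 6.12 in LP replicates 1 and 2 and 5.49 and 11.9 in HP replicates 1 and 2. The LP values thus fell between those of HP, and the log2 ratio of 0.23 did not pass (adjusted p = 0.686). Within replicate 1 it was -0.48 and within replicate 2 it was 0.95.

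The flanks of Dusp6 gave another picture. A distal region at -19.1 kb, chr10:99241048-99245196, had values of 0.959 and 1.04 in LP and 2.79 and 3.58 in HP. Both HP libraries were above both LP libraries, and the log2 ratio was 1.66 with a standard error of 0.54 (adjusted p = 0.0503, just outside the threshold). This region crosses the outer edge of the 20 kb window. A distal region beyond the other end of the gene, chr10:99284209-99285496, with its summit 19.4 kb downstream of the nearest annotated start, had 0.610 and 0.651 in LP and 1.57 and 3.02 in HP. Its log2 ratio of 1.79, a 3.45-fold difference, passed (adjusted p = 0.0456). Among distal regions of the series 8.56% passed. A region next to the first, at -16.5 kb, had no peak in LP replicate 1, 1.04 in LP replicate 2 and 0.784 and 1.47 in HP.

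That call rested on few fragments and was lost under several settings. The summit was covered by 7 and 10 fragments in LP and by 18 and 43 in HP, and the exact Poisson 95% interval for counting error ran from 0.245 to 1.26 on the scaled pileup in LP replicate 1 and from 0.929 to 2.48 in HP replicate 1. With the replicate number as a block the adjusted p was 0.0592 for this region and 0.0632 for the region at -19.1 kb. With centred libraries the ratios were 0.77 and 0.65 (adjusted p = 1.00 for both). Without HP replicate 2 the ratio at 19.4 kb was 1.31 (adjusted p = 0.232), and without LP replicate 1 or 2 it was 1.74 and 1.83 (adjusted p = 0.425 and 0.319).

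The reference sequence around the highest summit of the 3 Dusp6 regions called in all 4 libraries (mm10, plus strand) is shown because the only region past the threshold is among them. Capitals mark each GGAA, the core that ETS factors bind, read on either strand, so that TTCC is the same core on the other strand. The windows are chr10:99244016-99244216, chr10:99261592-99261792 and chr10:99284950-99285150, and each lies outside annotated exons.
Dusp6 distal, -19.1 kb: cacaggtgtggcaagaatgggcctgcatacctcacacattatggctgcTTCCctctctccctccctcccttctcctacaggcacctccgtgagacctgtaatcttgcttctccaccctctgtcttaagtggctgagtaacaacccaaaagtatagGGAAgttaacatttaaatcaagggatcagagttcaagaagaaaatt
Dusp6 promoter, -1.5 kb: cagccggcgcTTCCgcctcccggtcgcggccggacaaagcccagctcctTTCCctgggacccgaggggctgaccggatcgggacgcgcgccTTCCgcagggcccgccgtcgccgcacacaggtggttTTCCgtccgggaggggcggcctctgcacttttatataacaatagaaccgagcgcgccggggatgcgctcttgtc
Dusp6 distal, 19.4 kb: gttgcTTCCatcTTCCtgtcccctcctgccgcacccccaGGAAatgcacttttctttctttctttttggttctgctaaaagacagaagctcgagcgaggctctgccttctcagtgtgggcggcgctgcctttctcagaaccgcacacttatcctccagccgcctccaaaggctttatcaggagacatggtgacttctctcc
The promoter window held 4 cores at a GC content of 69.2%, and the distal windows held 2 and 3 cores at 47.3% and 53.7%. The core alone was searched after the data were seen, and it is common, with at least 1 in 87.6% of the distal and 85.7% of the promoter windows of the series.

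**Figure D2:**
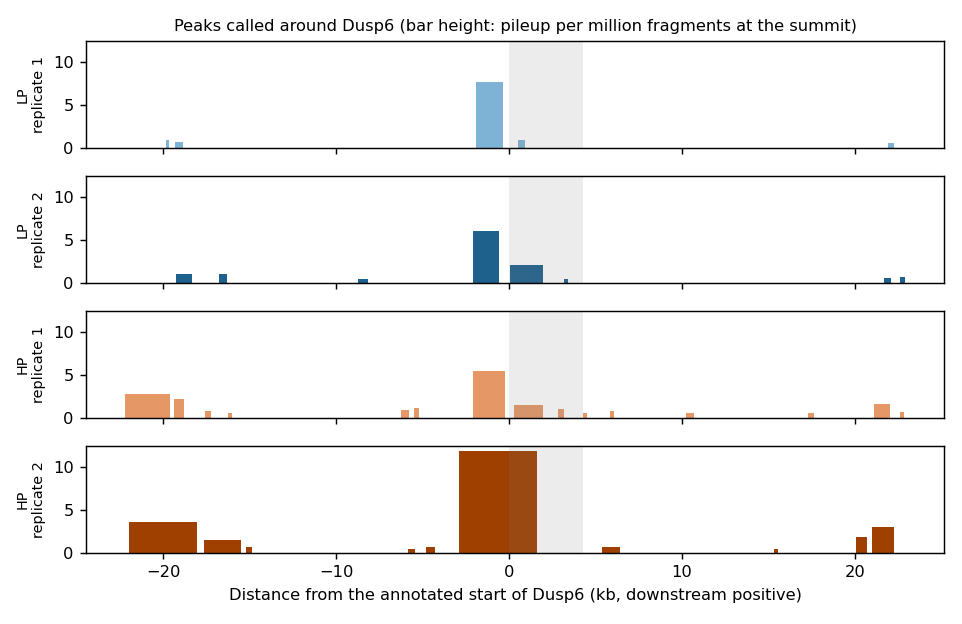
Peaks called around Dusp6 in each library, by distance from the annotated start in kb (x axis, gene shaded), with the scaled pileup at the summit as height (y axis, same scale in the 4 panels) and the peak's length as width. The peaks of the regions at -19.1 kb and 19.4 kb, the latter at 21.8 kb on this axis, reach higher in both HP libraries, while the promoter peak of HP replicate 1, 5.49, is the lowest of the 4.

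Distal and promoter pileups can be set against each other within a library, where depth and the efficiency of the precipitation are shared. This comparison was chosen after the values were seen. The region at -19.1 kb reached 12.5% and 17.0% of the Dusp6 promoter pileup in LP and 50.8% and 30.2% in HP. The region at 19.4 kb reached 7.95% and 10.6% in LP and 28.6% and 25.4% in HP. Both regions were divided by the same promoter value, so their ratios are not independent. The log2 HP minus LP of that promoter, 0.23, was the lowest of the 9 tested promoters, where all promoter regions had a median of 0.90. For both regions both HP libraries were above both LP libraries, which held for 22.6% of the 1645 pairs of a distal region and a promoter of the same gene over the series. The log2 changes of the ratio, 1.42 and 1.55, were at percentiles 99.2 and 99.7 of these pairs, with a median of 0.15 over them. Neither passed limma over all pairs (adjusted p = 0.922 for both), as 0% of the pairs did, with 42 at an unadjusted p under 0.05 on the side of HP and 25 on that of LP. The other pairs, at Dusp4 and Spred2, changed by 0.15 and -0.42, with overlapping groups.

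**Figure D3:**
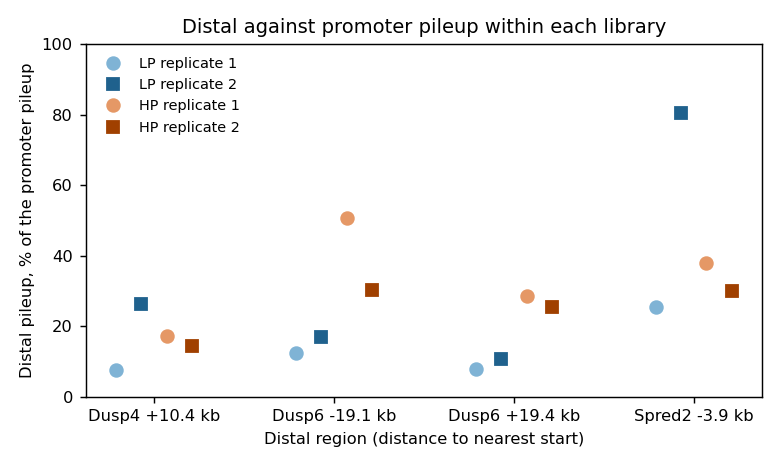
The pileup of each distal region called in all 4 libraries as a percent of the pileup at the promoter of its gene (y axis) in each library. The HP points of both Dusp6 regions, 25.4% to 50.8%, lie above the LP points, 7.95% to 17.0%, and those of Dusp4 and Spred2 are mixed with LP.

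Dusp4 encodes a nuclear phosphatase of the same family, which acts on ERK and related kinases (chr8:34807297-34819894, plus strand, ENSMUSG00000031530.6). Its promoter region spanned 12429 bp, the longest of all 12084 regions called in all 4 libraries, and took in most of the gene. In LP replicates 1 and 2 its peaks covered 6380 and 8243 bp, and in HP replicates 1 and 2 they covered 10624 and 12219 bp. Over the whole Dusp4 window the covered length was 1.59 times as great in HP, close to the 1.54 times of the whole series. LP replicates 1 and 2 had 7.94 and 5.67 and HP replicates 1 and 2 had 6.10 and 12.1, so the groups overlapped in height while the covered length was greater in both HP libraries. The log2 ratio was 0.35 (adjusted p = 0.547), with -0.38 in replicate 1 and 1.09 in replicate 2.

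An intronic region of Dusp4 at 10.4 kb had 0.610 and 1.50 in LP and 1.04 and 1.75 in HP (log2 ratio 0.50, adjusted p = 0.408), again with overlap. Dusp4 also had the only region of the windows called in both LP libraries and neither HP library, at -19.8 kb, with 0.872 and 1.11. Over the series 0.249% of regions had this pattern.

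The Sprouty proteins restrain signalling from growth factor receptors to RAS and RAF. At the Spry2 promoter (gene at chr14:105891947-105896819, minus strand) LP replicates 1 and 2 had 3.23 and 1.50 and HP replicates 1 and 2 had 4.27 and 5.54. At Spry1 (chr3:37639947-37644598, plus strand) the LP values were 1.13 and 1.30 and the HP values 2.61 and 2.31. At Spry4, on chromosome 18, the LP values were 3.05 and 2.74 and the HP values 2.70 and 6.87.

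HP was above LP without overlap at Spry1 and Spry2 and overlapped LP at Spry4. The log2 ratios of Spry2, Spry1 and Spry4 were 1.15, 1.02 and 0.58 (adjusted p = 0.121, 0.149 and 0.350), none past the threshold. The whole window of Spry1 held 3 regions and that of Spry2 also 3, the fewest among the 10 genes, and neither gene had a distal region called in more than 1 library.

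SPRED1 and SPRED2 bind neurofibromin and bring it to RAS at the membrane, which turns RAS off. The Spred1 promoter (gene at chr2:117121374-117182279, plus strand) was the highest of the 10, with 9.42 and 8.47 in LP and 15.1 and 15.7 in HP. Its mean was above 94.3% of the promoter regions of the series. The groups were apart, with a log2 ratio of 0.78 that did not pass (adjusted p = 0.232).

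At Spred2 (chr11:19924375-20024026, plus strand) the promoter had 6.89 and 3.32 in LP and 8.71 and 11.0 in HP (log2 ratio 1.03, adjusted p = 0.145). A distal region at -3.9 kb had 1.74 and 2.67 in LP and 3.31 and 3.30 in HP (log2 ratio 0.61, adjusted p = 0.325). Both were higher in both HP libraries, and neither passed. An intronic region of Spred2 at 24.8 kb was called in 3 libraries, with no peak in LP replicate 1, 0.586 in LP replicate 2 and 1.04 and 2.17 in HP.

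**Figure D4:**
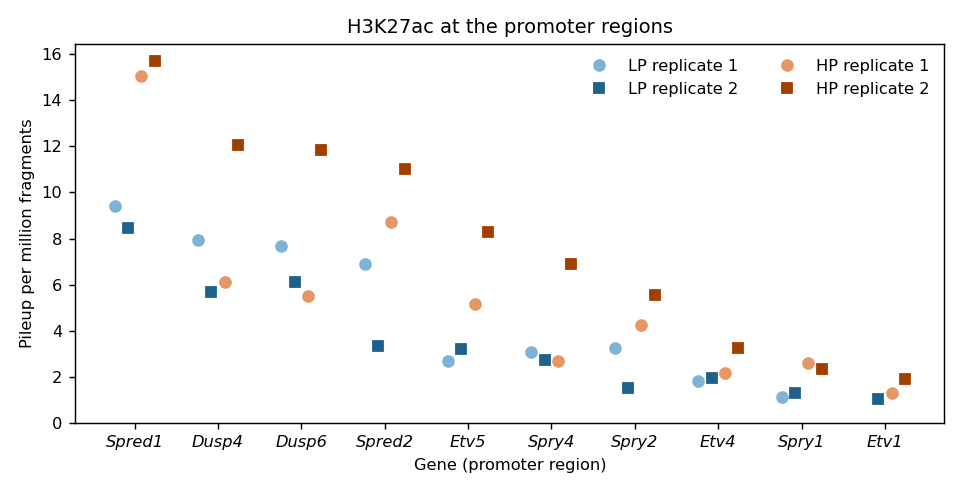
The scaled pileup (y axis) at the promoter region of each gene in the 4 libraries, ordered by the mean. HP replicate 2 is the highest library at 9 of the 10 promoters, the exception being Spry1, and for Etv1 there is no point for LP replicate 1, where no peak was called.

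ETV1, ETV4 and ETV5 are closely related ETS factors that bind GGAA sites and carry the ERK signal to target genes. Etv5 (chr16:22381309-22439719, minus strand) had the highest promoter pileup of the group, with 2.70 and 3.19 in LP and 5.14 and 8.28 in HP. In LP replicates 1 and 2 and HP replicate 1 the highest summit lay 0.25 to 0.35 kb downstream of the annotated start. In HP replicate 2 it lay at -0.32 kb. Near 0.25 kb HP replicate 2 had 4.35, and near -0.32 kb LP replicate 2 had 1.95 and HP replicate 1 had 3.05. By the highest summits the groups were apart, and the log2 ratio was 1.15 (adjusted p = 0.120). With the mean of the summit pileups it was 0.95. Etv4 (chr11:101769742-101785371, minus strand) had 1.83 and 1.95 in LP and 2.18 and 3.23 in HP, apart by a smaller margin (log2 ratio 0.49, adjusted p = 0.421). Etv1 (chr12:38779380-38870484, plus strand) had no promoter peak in LP replicate 1, 1.04 in LP replicate 2 and 1.31 and 1.89 in HP, and was not tested for that reason. A missing peak says only that the authors' threshold was not reached.

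By mean pileup over the libraries the order of the promoters was Spred1, Dusp4, Dusp6, Spred2, Etv5, Spry4, Spry2, Etv4, Spry1 and Etv1. In every neighbouring pair of this order the ranges over the 4 libraries overlapped. Of the 9 tested promoters, HP was above LP without overlap at 6, with 74.1% of all promoter regions in the series doing so. None of the 9 passed limma, and the lowest adjusted p was 0.120, at Etv5. HP replicate 2 stood above HP replicate 1 over the whole series too, by a median log2 of 0.67, where the LP replicates differed by -0.06. Without HP replicate 2 the median of the 9 promoters was 0.75, and the ratios of Dusp4, Dusp6 and Spry4 were -0.14, -0.32 and -0.098.

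Regions called in both HP libraries and neither LP library were most numerous at Etv4. There were 9 such regions in the windows (7.14%), against 3.94% of all regions and 4.59% of those within 20 kb of a protein-coding gene. Etv4 had 4 among its 11 regions and Dusp6 had 2 among 17. Etv1, Etv5 and Spred1 had 1 each, among 9, 24 and 17 regions. Of those at Etv4, 2 lie next to each other, at chr11:101771978-101772436 and chr11:101772530-101772939. At Etv4 they were a distal region at -5.3 kb (1.39 and 1.96 in HP replicates 1 and 2), a pair at internal starts of the gene, 1 intronic (1.57 and 1.89) and 1 exonic (1.39 and 0.772), and a region within the neighbouring gene Dhx8 (0.784 and 0.912). At Etv5 it was an intronic region at 7.0 kb, with 1.65 and 1.54. At Dusp6 they were a region at -5.2 kb (1.13 and 0.491) and one just past the gene (0.784 and 0.702), and the intronic regions of Etv1 at 5.5 kb and Spred1 at 11.6 kb each had 0.784 and 0.491. These were small peaks, between 7 and 28 fragments at the summit over the 9 regions. Another intronic region of Etv5, at 7.8 kb, was called in 3 libraries, with 0.716 in LP replicate 2 and 1.65 and 1.47 in HP.

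The sequences of the Etv4 distal region (chr11:101790568-101790768), the Etv5 intronic region (chr16:22429397-22429597) and the Etv5 promoter (chr16:22439940-22440140) are given for the ETS genes on the plus strand of mm10, opposite to the direction of both genes. Capitals mark TCAGGTG, a match to TCANGTG, in the Etv4 distal window and GGAA cores in the Etv5 intron window. In the Etv5 promoter window they mark TGAGTCA, a match to the AP-1 site TGANTCA. The pattern TCANGTG takes in the E-boxes that MITF binds, those with C or T at the open letter. That letter is G in the Etv4 distal window. GGAA cores, read on either strand, also occur in the Etv4 distal and Etv5 promoter windows, where they are left in lower case.
Etv4 distal, -5.3 kb: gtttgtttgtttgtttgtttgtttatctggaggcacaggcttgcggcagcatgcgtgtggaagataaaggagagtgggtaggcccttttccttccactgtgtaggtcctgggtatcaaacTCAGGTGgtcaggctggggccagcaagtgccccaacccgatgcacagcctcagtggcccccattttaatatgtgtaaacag
Etv5 intron, 7.0 kb: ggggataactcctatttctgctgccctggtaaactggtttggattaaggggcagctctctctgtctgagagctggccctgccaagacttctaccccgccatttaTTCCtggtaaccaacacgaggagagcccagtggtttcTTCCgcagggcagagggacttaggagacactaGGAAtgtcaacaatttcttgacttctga
Etv5 promoter, -0.3 kb: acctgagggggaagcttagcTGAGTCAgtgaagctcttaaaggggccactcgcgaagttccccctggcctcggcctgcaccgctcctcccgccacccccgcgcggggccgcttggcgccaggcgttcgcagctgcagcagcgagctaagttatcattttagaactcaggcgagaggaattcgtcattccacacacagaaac

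**Figure D5:**
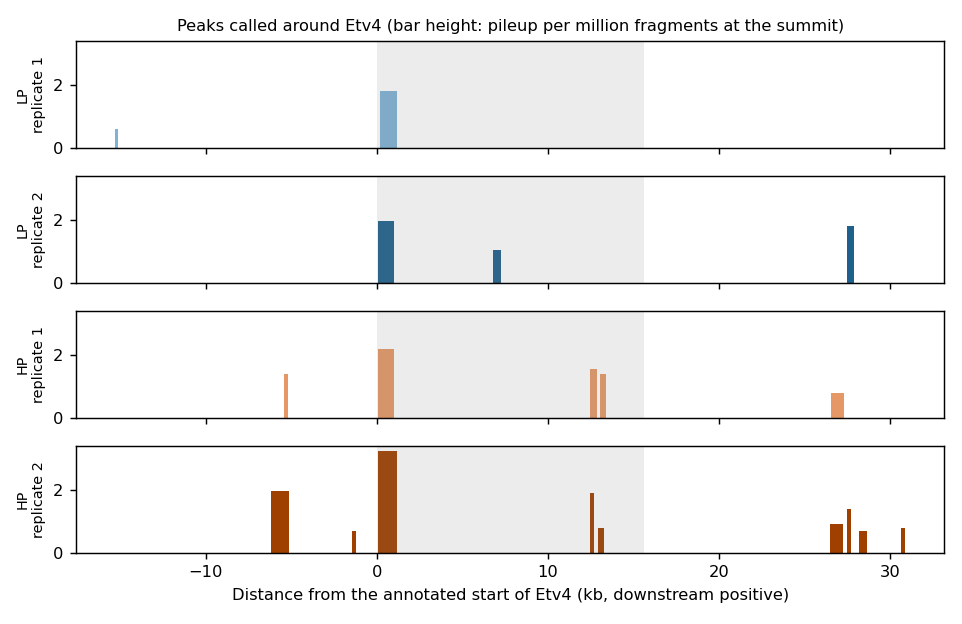
Peaks called around Etv4 in each library, by distance from the annotated start in kb along the gene (x axis, gene shaded), with the scaled pileup at the summit as height (y axis) and the peak's length as width. The peak upstream of the gene and the pair near the far end of the gene body appear in both HP libraries and in neither LP library, and the promoter peak is in all 4.

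Motifs were counted on both strands within 100 bp of the highest summit. The ETS site CCGGAAGT was in 0 of the 30 promoter windows (own and neighbours' promoters) and 0 of the 96 distal windows, where 0.402% of all promoter and 0.195% of all distal windows held it. Over whole regions 2 of the 30 promoter regions held it (6.67%, against 3.24%). AP-1 matches were in 3 promoter windows (10.0%, against 4.65%) and 6 distal windows (6.25%, against 6.17%). E-box matches were in 4 promoter windows (13.3%, against 9.11%) and 7 distal windows (7.29%, against 10.8%). These are counts of letters, and with so few windows they are given as a description.

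Summed over the windows, the peaks of LP replicates 1 and 2 covered 22485 and 39574 bp and those of HP replicates 1 and 2 covered 47855 and 70716 bp, 1.91 times as much in HP, with 35 and 61 peaks in LP and 62 and 75 in HP. The peaks in the windows were 1.43 times as many in HP. Over the whole series the covered length was 1.54 times as great in HP and the peaks were 1.09 times as many. For distal regions the LP lengths were 3949 and 13441 bp and the HP lengths 15262 and 29625 bp, 2.58 times as much, where all distal regions had 1.41 times. Dusp6 alone held 5954 and 9434 bp of the HP lengths, and without it the ratio was 2.15. LP was below HP in each replicate in these sums, with an exact permutation p of 0.33 for each, the smallest that 2 against 2 can give. The sums depend on how much was called in each library, and LP replicate 1 had the fewest peaks of the 4 over the genome, 57942, at a median of 7 fragments. With the 4 lists cut to equal size the covered length was 1.92 times as great in HP and the peaks 1.40 times as many. Without replicate 1 the ratios were 1.79 and 1.23, against 1.45 and 1.07 over the whole series.

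Of 62 further genes of the pathway, 47 had a region at the promoter in each of the 4 libraries, and each of the 47 had a log2 ratio above 0, with a median of 0.87 and 36 without overlap. Both counts stand beside the backgrounds given above, 98.98% of all regions above 0 and 74.1% of promoter regions without overlap. None passed limma, where 4.01% of all regions passed as higher in HP. Among the receptors and the RAS to RSK cascade, 21 promoters ran from 0.41 at Ptpn11, the phosphatase SHP2 that activates RAS signalling, to 1.36 at Hras. Other feedback genes (8 promoters) ran from 0.42 at Dusp8 to 1.29 at Dusp2, both phosphatases of MAP kinases. Other ETS and related genes (13) ran from 0.35 at Elk4 to 1.19 at Elk3, both cofactors of serum response factor, and further ERK output genes (5) from 0.38 at Phlda1 to 1.24 at Ccnd1, the cell cycle regulator cyclin D1. With centred libraries the median of the 47 was -0.14, where that of all regions was -0.087.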

How the data were processed

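H3K27ac ChIP-seq of LP and HP cells gave 4 libraries. The authors trimmed the reads (Trimmomatic 0.33), aligned them to mm10 (Bowtie2 2.5.1) and called peaks in each library with MACS 3.0.0b1 at a q-value of at most 0.05 with the IgG library of that replicate as background, 8701778 and 19358733 fragments. The deposited pileup is a signal in whole fragments, not scaled for library size. The authors' fold enrichment is a ratio to the local background. The deposited −log10 p-values and −log10 q-values, and the authors' score, served only to rank or filter peaks.

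Pileups were divided by the fragments of the library and multiplied by 1000000. Peaks that shared at least 1 bp were merged over the 4 lists and placed on GENCODE transcripts of the same assembly. Regions called in all 4 libraries were compared on the log2 scale with limma 3.58.1 in R 4.3.3, two-sided, with Benjamini-Hochberg adjustment over all 12084. limma used one pooled variance, so the standard error was 0.54 for each region. Per the labels, equal DNA was used within each replicate set, so a number was taken to mark a shared set, although the correlation of replicate differences between LP and HP was only 0.0153. The model had no block, as the study states none. Merging and limma were tested on simulated data, where recovery of changes by limma was required only at a spread far smaller than that of these libraries. Named genes are the 10 genes, each with its highest promoter region and its highest distal region in all 4 libraries, every region past the threshold and those called in 1 population only, and in the other lists the highest and lowest ratio. The genes and lists were chosen with earlier results of these data known. DiffBind needs alignments, which were not used here. The other tools were samtools 1.23.1, matplotlib 3.10.9, scipy 1.17.1, numpy 2.4.6, pandas 2.3.3 and Python 3.11.15, and sequences came from the RefSeq copy of the assembly. The closing section gives the alternatives.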

Additional observations from a re-analysis of the deposited data

How the results depend on the processing

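The number of regions higher in HP, 1, was 0 with the replicate block, with centred libraries, with quantile normalization, with scaling by fragment length and with the mean of the summit pileups, and 0 to 6 when a library was left out, 6 being without HP replicate 1. Without that library 16 promoters of other pathway genes passed, and 0 otherwise. HP then rested on replicate 2, which stood above HP replicate 1 over the whole series by a median log2 of 0.67. The share of all regions passing in that fit is not given, so the 6 and the 16 show nothing particular to these genes. The replicate block ended no other call. The promoter median, 0.78, was -0.23 with centred libraries and 0.010 with quantile normalization, and it was 0.34 to 1.09 with a library or replicate left out, 1.09 being without replicate 1, where the distal median of 1.04 was the lower. The distal median, 1.14, was then 0.13 and 0.10, and it was 0.95 to 1.43 with a library or replicate left out, 0.50 for the gene and 3 kb and 0.90 for the gene and 50 kb.

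With centring, the ratio was negative at the promoters of Dusp4 (-0.66), Dusp6 (-0.78), Spry4 (-0.43), Spred1 (-0.23) and Etv4 (-0.52) and the distal regions of Dusp4 (-0.51) and Spred2 (-0.40). With quantile normalization it was negative at the promoters of Dusp4 (-0.47), Dusp6 (-0.61), Spry4 (-0.41) and Etv4 (-0.56) and the same distal regions (-0.46 and -0.43). With a library left out, the promoter ratio ran from -0.14 to 0.85 at Dusp4, from -0.32 to 0.79 at Dusp6 and from -0.098 to 1.25 at Spry4, each lowest without HP replicate 2, and the distal ratio of Dusp4 from -0.15 (without LP replicate 1) to 1.15. The change of the distal to promoter ratio ran from -0.86 to 1.16 at Dusp4 and from -1.43 to 0.59 at Spred2, both lowest without replicate 1. The cause was not tested.

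Regions called in HP alone numbered 32 to 50 with a replicate left out, since single lists were then compared, and those in LP alone 10 to 27. For distal regions in HP alone the range was 23 to 40. No share of all regions is given for these single lists, so the counts show nothing particular to these genes. With both replicates, 3 distal regions in HP alone lay in the gene and 3 kb. In LP alone there were 0 in the gene and 3 kb and 2 in the gene and 50 kb. Over whole regions 17.7% of distal regions held TCANGTG, against 16.7% of all distal regions. Of 155 values of single regions under alternatives, 123 kept their direction and their side of the threshold, 19 reversed, 5 came to pass and 8 ceased to pass. Some of these alternatives were chosen after the data were seen. Summits of 7 to 51 fragments in the distal regions called in all 4 libraries, and as few as 5 in other distal regions, limit what these libraries can show.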
